A study of Mus musculus with 6 samples.

Results

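Cytochrome P450 enzymes are encoded by genes whose symbols are Cyp followed by a family number, a subfamily letter and a gene number. Every row of the deposited table whose symbol has that form was taken as a member, which gave 50 of 15643 genes. The transcripts were measured in mature medullary thymic epithelial cells (mTEChi, the MHC class II-high fraction) that had been sorted from the thymus of 4.5-week-old NOD mice. Libraries 745, 750 and 753 carry the label Aire+/+ and libraries 746, 748 and 749 the label Aire-/-, so n is 3 per genotype, and mice of both genotypes were on the NOD background, a strain prone to autoimmune diabetes. Aire is a transcriptional regulator of these cells, and the comparison asked which P450 transcripts differ between cells with and without it. The MARS-seq protocol reads 3' ends of transcripts and tags each molecule with an identifier (UMI), and the libraries held 1014581 to 2887321 UMIs, with every Aire-/- library below every Aire+/+ library.

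P450 enzymes are heme proteins that insert 1 oxygen atom into their substrate, using electrons passed on by cytochrome P450 reductase in the endoplasmic reticulum or by ferredoxin in mitochondria. Liver, gut, airway and olfactory mucosa use them to oxidise drugs and other foreign compounds. Adrenal gland and gonads use them to make steroid hormones, and many tissues use them to handle cholesterol, fatty acids and vitamins A and D. Medullary thymic epithelium is known for transcribing genes of such peripheral tissues at low level and showing their products to developing T cells, and several P450 enzymes are targets of autoantibodies in people who lack AIRE, the disease APS1.

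Some facts of the whole series bear on the values below. Transcripts assigned to Aire were not reduced in the libraries labelled Aire-/- (4772 to 8372 UMIs, against 6290 to 7290). Scaled for library size they were higher in every Aire-/- library (log2 fold change 1.10, edgeR adjusted p = 7.76e-05). Which part of the gene is deleted is not stated, and a 3' tag outside it checks nothing, so directions rest on the labels. Below, a gene is lower or higher where its level in Aire-/- libraries is below or above that in Aire+/+ libraries. Libraries 753 and 746 held 90 and 28 UMIs of Gapdh against 2245 to 4166 in the others, and counts are given with and without this pair. Of 14 markers of mature medullary epithelium all were tested, with 6 called higher, Aire among them, and 0 lower (8.59% and 12.1% of all tested genes). Their summed level was 36410 to 39850 CPM (UMIs per 1000000 of the library total) in Aire+/+ and 54560 to 62400 CPM in Aire-/-. Of 8 markers of cortical epithelium 7 were called higher (1351 to 1753 CPM against 2325 to 2642 CPM), again beside 8.59% of all tested genes. No call fell on 9 thymocyte markers or 4 B cell markers tested. Of 4 fibroblast markers tested 2 were called higher (71.8 to 117 CPM against 139 to 596 CPM), beside the same 8.59%. None of 7 markers of dendritic cells and macrophages was called (1603 to 1987 CPM against 1713 to 3038 CPM). Among them Lyz2, lay higher in every Aire-/- library and was called higher under the looser filter (edgeR adjusted p = 0.0466).

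Fewer P450 genes were detected in the Aire-/- libraries, and fewer UMIs of them. If every library had been drawn down to 1014581 UMIs, 47.3, 46.9 and 46.1 of the 50 genes would be expected to show at least 1 UMI in Aire+/+ and 26.8 to 29.7 in Aire-/-. This number did not overlap between genotypes, and over all genes of the table the same expectation was 15144 to 15278 against 13566 to 13633. Of all 15643 genes 2 had 0 UMIs throughout Aire+/+ and 857 throughout Aire-/-, so the table holds almost no gene missed in Aire+/+. Detection of nearly all 50 genes in Aire+/+ is therefore no result about P450 genes. All P450 UMIs together came to 805, 853 and 815 CPM of the library total in Aire+/+ and to 682, 677 and 718 CPM in Aire-/-. On library sizes scaled by TMM, edgeR's correction for composition, those sums were 723 to 800 CPM and 711 to 800 CPM and overlapped. Cyp26a1 and Cyp2a5 made up 34.6% to 40.3% of all P450 UMIs in the Aire+/+ libraries and 48.3% to 63.0% in the Aire-/- libraries, and the other 48 genes went from 509 to 532 CPM of the library total down to 250 to 353 CPM. In such sorted populations fewer cells with a transcript and less of it per cell cannot be told apart.

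**Figure D1:**
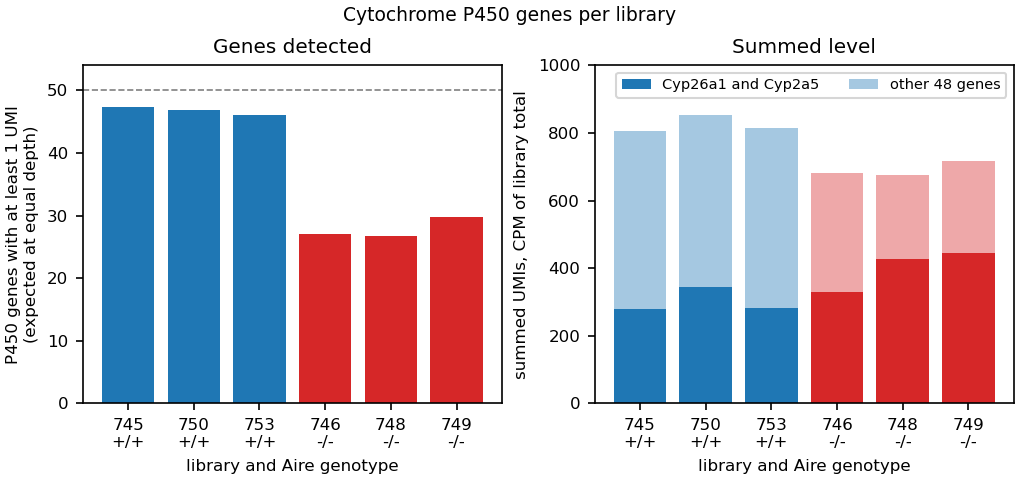
P450 genes in each library, by library number and Aire genotype (blue, Aire+/+; red, Aire-/-). Left, the number of the 50 genes (dashed line) expected to have at least 1 UMI at equal depth, between 46.1 and 47.3 in Aire+/+ and between 26.8 and 29.7 in Aire-/-. Right, summed UMIs as CPM of the library total, with Cyp26a1 and Cyp2a5 in full colour and the other 48 genes in pale colour.

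Of the 50 genes 24 had enough counts to be tested, against 76.4% of all genes in the table, and 10 of them were called at an adjusted p of 0.05 (edgeR quasi-likelihood test, Benjamini-Hochberg over 11956 genes). Cyp1a2, Cyp11a1, Cyp4f14, Cyp8b1, Cyp2f2, Cyp2b19 and Cyp26b1 were lower, which is 7 genes beside a background of 12.1% of tested genes called lower. Cyp2g1, Cyp27a1 and Cyp26a1 were higher, which is 3 genes beside 8.59%. The median log2 fold change of the 24 genes was -0.11, against -0.02 over all tested genes. Of the 24 genes, 5 (Cyp11a1, Cyp1a2, Cyp26b1, Cyp4f14 and Cyp8b1) reached the filter level of 4.26 CPM in all Aire+/+ libraries and in no Aire-/- library. They entered the test through the genotype in which they were high. In all, 10 of the 24 reached it in 3 Aire+/+ libraries and in fewer than 3 Aire-/- libraries. All 7 genes called lower are among these 10, so the counts are a description. The 3 Aire-/- libraries lay below all 3 Aire+/+ libraries for 9 of the 24 genes (20.2% of tested genes) and above them for 5 (16.3%). Over all 50 genes these numbers were 25 (24.5% of all genes) and 5 (13.2%).

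These counts changed with the libraries and with the filter. With 753 and 746 both left out there were again 7 lower genes (background 9.67%) and 3 higher genes (5.36%). Of the original calls 5 and 2 remained, Cyp26b1, Cyp2b19 and Cyp2g1 were lost, and Cyp2b10, Cyp2s1 and Cyp2a5 were gained. Without 753 alone 4 genes were lower (background 9.29%). Leaving out 746, 748 or 749 let 30 P450 genes through the filter in place of 24 and gave 12, 11 and 11 lower genes (background 13.3%, 10.8% and 14.5%). Scaling by library totals alone gave 8 lower (background 17.1%) and 3 higher P450 genes (4.74%), and moved the split over all genes from 1450 lower and 1027 higher to 2048 and 567. DESeq2 called 6 P450 genes lower (10.2%) and 3 higher (6.9%). With a looser count filter 40 genes were tested, of which 16 were lower (background 14.2%) and 3 higher (7.47%). The lower genes gained by it were Cyp19a1, Cyp1a1, Cyp24a1, Cyp2b10, Cyp2d10, Cyp2d26, Cyp2w1, Cyp46a1 and Cyp4b1. They had 0 UMIs over the Aire-/- group, or 1 for Cyp19a1, so they passed the looser filter through Aire+/+ alone. That count, and the calls of these genes under the looser filter given below, are a description too. In the authors' deposited table, 7 P450 genes were selected as higher in Aire+/+ (7.14% of all genes) and Cyp2g1 as higher in Aire-/- (2.28%).

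**Figure D2:**
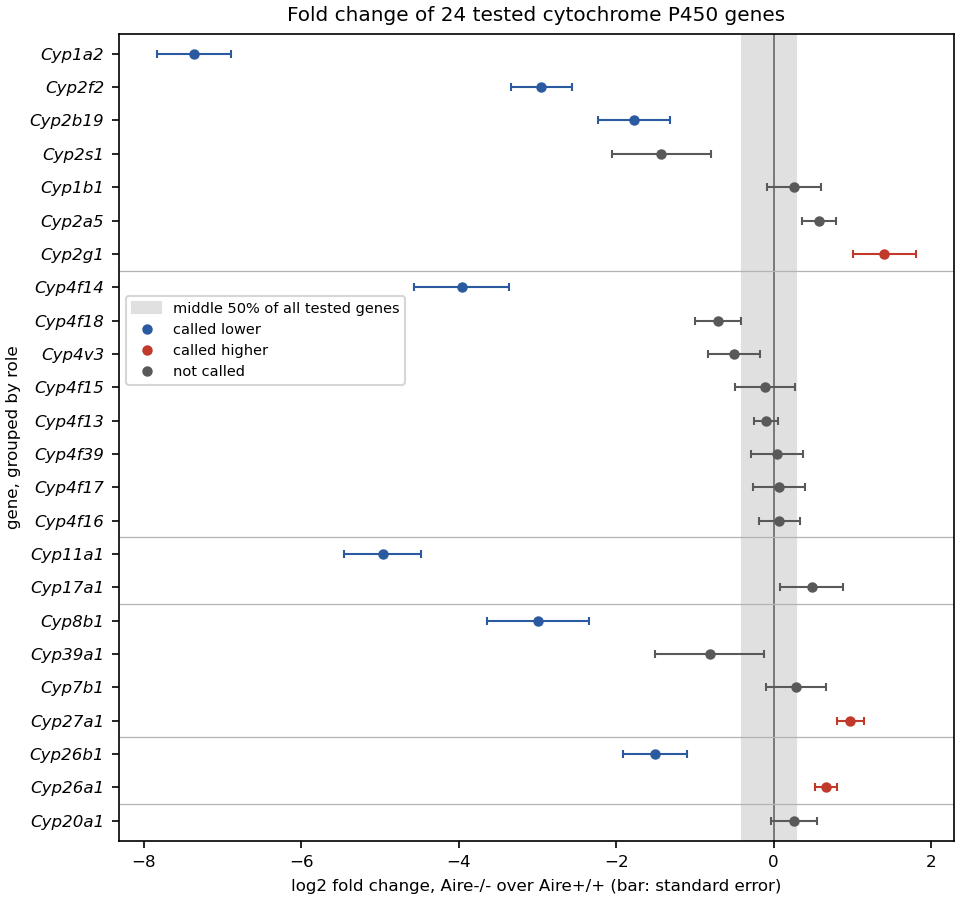
Log2 fold change of Aire-/- over Aire+/+ for the 24 tested P450 genes, grouped by role from top to bottom (foreign compounds, fatty acids, steroid hormones, cholesterol and bile acids, vitamins A and D, no assigned role). Points are edgeR estimates, bars are standard errors, and the grey band holds the middle 50% of all tested genes (-0.40 to 0.28). Cyp1a2 lies farthest to the left at -7.37 and Cyp2g1 farthest to the right at 1.41.

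Promoter sequences are shown for 4 genes that were called lower (Cyp1a2, Cyp8b1, Cyp2f2 and Cyp2b19) and 2 that were called higher (Cyp26a1 and Cyp27a1), which were picked, with their values known, from the 7 called genes with 1 RefSeq start site. Each line gives the 150 bases before the start site, 5' to 3' on the gene's strand, from RefSeq on GRCm38.p6 (mm10), and the GENCODE models of Cyp1a2, Cyp2f2 and Cyp26a1 begin inside the stretch. Capitals mark CG dinucleotides, the TATA box letters TATAAA, and a direct repeat of retinoic acid receptor half-sites.
Cyp1a2, chr9:57683656-57683805, minus strand: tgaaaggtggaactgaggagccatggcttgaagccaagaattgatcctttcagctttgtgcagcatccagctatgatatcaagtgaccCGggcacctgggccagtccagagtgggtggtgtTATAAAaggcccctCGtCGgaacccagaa
Cyp8b1, chr9:121916306-121916455, minus strand: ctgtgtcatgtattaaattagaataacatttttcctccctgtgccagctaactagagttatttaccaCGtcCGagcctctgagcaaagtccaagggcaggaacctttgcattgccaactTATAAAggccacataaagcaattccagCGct
Cyp2f2, chr7:27119805-27119954, plus strand: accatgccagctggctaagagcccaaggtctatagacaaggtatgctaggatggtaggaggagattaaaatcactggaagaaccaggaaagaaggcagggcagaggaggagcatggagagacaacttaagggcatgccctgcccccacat
Cyp2b19, chr7:26756992-26757141, plus strand: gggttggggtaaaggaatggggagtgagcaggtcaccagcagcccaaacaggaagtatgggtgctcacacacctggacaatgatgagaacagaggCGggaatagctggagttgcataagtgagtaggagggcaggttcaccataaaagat
Cyp26a1, chr19:37697658-37697807, plus strand: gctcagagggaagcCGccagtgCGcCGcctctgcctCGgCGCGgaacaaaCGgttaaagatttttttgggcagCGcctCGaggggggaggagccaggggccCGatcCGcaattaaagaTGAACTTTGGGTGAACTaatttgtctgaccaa
Cyp27a1, chr1:74713385-74713534, plus strand: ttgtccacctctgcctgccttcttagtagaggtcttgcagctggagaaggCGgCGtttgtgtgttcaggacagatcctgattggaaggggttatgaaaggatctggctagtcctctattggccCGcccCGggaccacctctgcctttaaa
These stretches hold 3, 3, 0, 1, 11 and 4 CG dinucleotides in that order. In the full windows of 300 bases (250 before and 50 after the start), which 35 of the 50 genes had, the lower genes with 1 start site held 0 to 9 CG dinucleotides (median 3.0, 5 genes), Cyp27a1 held 10 and Cyp26a1 held 26. The tested genes that were not called held 2 to 20 (median 8.5, 10 genes), and the median over all 32851 windows was 7.0. The untested genes with 1 start site held 1 to 31 (median 3.5, 12 genes). The one with 31 was Cyp46a1, which had 0 UMIs in each Aire-/- library and was called lower under the looser filter (edgeR adjusted p = 0.0137). TATAAA, searched on both strands, begins 29 bases before the start of Cyp1a2 and 31 bases before that of Cyp8b1, and 13.6% of all windows and 13 of the 44 P450 windows hold it. It also stands 29 bases before the start of Cyp2a5, which was not called, 139 bases before that of Cyp26b1, and after the start in the window of Cyp26a1. The letters AGTTCA, any 5 bases and AGTTCA again, searched on both strands, are in 8 of the 32851 windows (0.0244%). Of the P450 windows that of Cyp26a1 holds them, on the opposite strand from 32 bases before the start. These matches describe the letters and not the binding of a factor.

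Among the enzymes of foreign compounds, Cyp1a2 had the largest decrease of the tested P450 genes. Cyp1a2, a liver enzyme that oxidises caffeine and aromatic amines and is known as a liver autoantigen in APS1, stood at 43.0, 43.3 and 51.7 CPM in the Aire+/+ libraries and had 0, 0 and 1 UMI in the Aire-/- libraries. The level went from 45.98 ± 4.95 to 0.204 ± 0.353 CPM (SD, n = 3 each), with CPM on TMM-scaled library sizes here and below, and the change was -7.37 ± 0.47 on the log2 scale (edgeR adjusted p = 5.21e-07). With a single UMI in Aire-/-, the pooled ratio of 205 has an exact 95% counting interval of 36.7 to 8128. Errors of log2 changes are standard errors throughout. The fitted value was -9.77 without library 749, which holds that UMI, and -6.72 without 748. Cyp1a1, the classical target of the aryl hydrocarbon receptor, lies head to head with Cyp1a2 on chromosome 9 and had 10, 11 and 8 UMIs in Aire+/+ and 0 in each Aire-/- library. Taking 3 UMIs over the Aire-/- group as the floor and the Aire+/+ counts as exact, here and below, the gene was lower by at least 4.77-fold. It was called lower under the looser filter (edgeR adjusted p = 0.00444). Cyp1b1, the enzyme of that family found outside the liver, had 15, 15 and 14 UMIs against 6, 10 and 10, or 4.86 ± 0.14 and 5.88 ± 0.44 CPM. Its Aire-/- libraries lay above the Aire+/+ libraries and it was not called (log2 change 0.26 ± 0.34).

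Cyp2f2, an enzyme of airway club cells that activates naphthalene, fell in all Aire-/- libraries. It had 172, 183 and 101 UMIs in Aire+/+ and 7, 19 and 3 in Aire-/-, or 50.3 ± 14.3 and 6.41 ± 4.25 CPM, which is -2.95 ± 0.39 on the log2 scale (edgeR adjusted p = 0.000132). The Aire-/- libraries ranged from 1.83 to 10.2 CPM and stayed below the lowest Aire+/+ library at 33.9 CPM. Without library 748 the estimate was -3.67. Cyp2b19, an arachidonic acid epoxygenase of keratinocytes, had 53, 74 and 78 UMIs against 8, 2 and 19. It went from 22.7 ± 4.66 to 6.97 ± 5.38 CPM (log2 change -1.77 ± 0.46, edgeR adjusted p = 0.015) without overlap of the genotypes. The estimate moved to -1.14 without library 748 and to -2.62 without 749, and the call was lost without 750 (adjusted p = 0.0535) and without 753 (adjusted p = 0.0616).

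Cyp2g1, an enzyme of the olfactory mucosa, moved the other way. It was at 13.8, 16.2 and 20.1 CPM in Aire+/+ and at 88.3, 23.1 and 31.8 CPM in Aire-/-, where library 746 stood far above the other two. The change was 1.41 ± 0.40 on the log2 scale (edgeR adjusted p = 0.0233). Without 746 it was 0.71 and no longer called (adjusted p = 0.0558), and the call was also lost without 745 (adjusted p = 0.0931) and without 750 (adjusted p = 0.0731). Cyp2a5, which hydroxylates coumarin and nicotine in liver and nose, gave more UMIs than any other P450 gene. Its levels were 147, 215 and 165 CPM in Aire+/+ and 181, 254 and 348 CPM in Aire-/- and overlapped (log2 change 0.58 ± 0.21, edgeR adjusted p = 0.0737). It was called higher without library 746 (0.78, adjusted p = 0.00563). The last 300 bases of Cyp2a4, which had 16 UMIs in Aire+/+ and 4 in Aire-/-, match Cyp2a5 at 97.0% identity, so the reads of these copies may have been divided. Cyp2s1, an epithelial enzyme inducible by dioxin, had 18, 27 and 18 UMIs against 8, 1 and 2 and was not called (log2 change -1.43 ± 0.63). Without library 746, in which it was at 8.21 CPM against 0.538 and 1.22 CPM in the other two, it was called lower (-2.94, adjusted p = 0.00504).

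**Figure D3:**
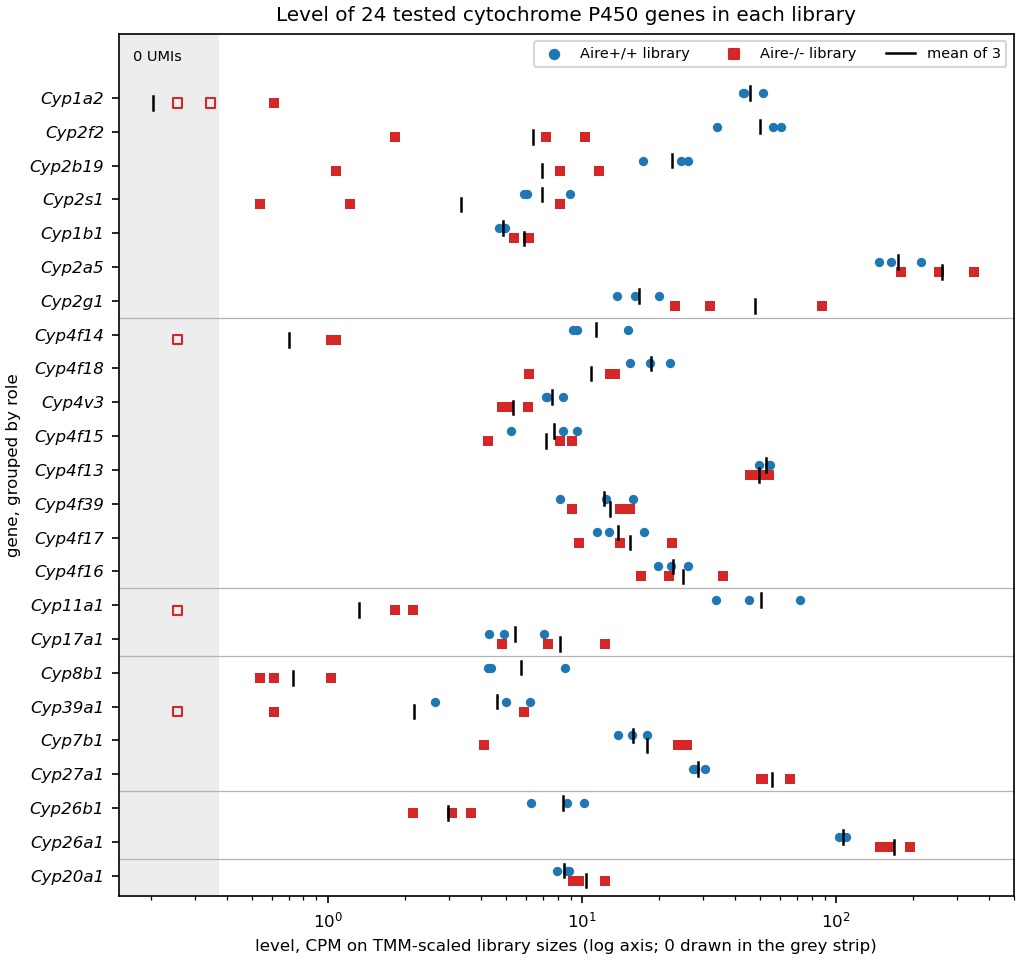
Level of the 24 tested P450 genes in each library, as CPM on TMM-scaled library sizes on a log axis. Blue circles are Aire+/+ libraries, red squares Aire-/- libraries, black ticks the mean of 3, and open symbols in the grey strip libraries with 0 UMIs. For Cyp1a2 and Cyp11a1 the genotypes are far apart, while the Cyp4f genes other than Cyp4f14 and Cyp4f18 overlap.

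The fatty acid and eicosanoid enzymes had 8 tested genes, of which 1 was called. Cyp4f14, which inactivates leukotriene B4, had 28, 29 and 45 UMIs in Aire+/+ and 1, 2 and 0 in Aire-/-, or 11.3 ± 3.31 and 0.701 ± 0.607 CPM (log2 change -3.96 ± 0.61, edgeR adjusted p = 0.000444). With 3 UMIs in Aire-/- the pooled ratio was 16.8, with a counting interval of 5.58 to 82.7. The estimate was -4.68 without library 748 and -3.35 without 749. Cyp4f13, the Cyp4f gene with the most UMIs, had 168, 150 and 162 UMIs against 53, 85 and 81, which is 53.0 ± 3.02 against 49.9 ± 4.36 CPM (log2 change -0.10 ± 0.15). Cyp4f15 (16, 29 and 25 UMIs against 8, 17 and 7) and Cyp4f16 (68, 60 and 78 against 35, 41 and 28) were not called. Neither were Cyp4f17 (39, 53 and 34 against 22, 18 and 23) and Cyp4f39 (25, 48 and 37 against 15, 17 and 23). The product of Cyp4f39 hydroxylates very long fatty acids for the skin barrier. Cyp4f15, Cyp4f16, Cyp4f17 and Cyp4f39 had log2 fold changes between -0.11 and 0.07 with standard errors of 0.26 to 0.38, and their libraries overlapped. Cyp4f18, a leukotriene-degrading enzyme of neutrophils, was at 15.4, 22.1 and 18.5 CPM against 6.16, 12.9 and 13.4 CPM. Its libraries did not overlap, but it was not called (log2 change -0.71 ± 0.29, edgeR adjusted p = 0.114), except when scaled by library totals alone (-0.91, adjusted p = 0.0381). Cyp4v3, whose human counterpart is tied to a retinal dystrophy, had 22, 22 and 25 UMIs against 5, 9 and 10, or 7.63 ± 0.66 and 5.36 ± 0.67 CPM, again without overlap and without a call (log2 change -0.50 ± 0.33).

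The steroid hormone enzymes were led by Cyp11a1, the mitochondrial enzyme that cleaves the side chain of cholesterol and opens steroid synthesis, and which is a known autoantigen in APS1. It had 138, 102 and 215 UMIs in Aire+/+ and 0, 4 and 3 in Aire-/-, or 50.4 ± 19.7 and 1.33 ± 1.16 CPM (log2 change -4.97 ± 0.49, edgeR adjusted p = 1.38e-05). The highest Aire-/- library, at 2.15 CPM, stood far below the lowest Aire+/+ library at 33.7 CPM, and the estimate was -4.27 with 753 and 746 left out. Cyp17a1, which makes the precursors of glucocorticoids and androgens, had 15, 13 and 21 UMIs against 12, 9 and 12 and was not called (log2 change 0.48 ± 0.40). Cyp21a1, the adrenal hydroxylase that is the main autoantigen of Addison disease, was below the count filter with 14, 5 and 7 UMIs against 0, 0 and 2 (ratio 6.42, counting interval 1.61 to 55.8). Cyp19a1, the aromatase that makes estrogens, had 7, 10 and 14 UMIs against 0, 1 and 0 (ratio 15.3, interval 2.55 to 624) and was called lower under the looser filter (edgeR adjusted p = 0.0109). Summed over these 4 genes the level was 63.6, 45.8 and 89.0 CPM of the library total in Aire+/+ and 11.8, 7.14 and 9.32 CPM in Aire-/-. This sum mostly follows Cyp11a1, which had 455 UMIs over the Aire+/+ group. Cyp17a1, Cyp19a1 and Cyp21a1 had 49, 31 and 26 there, so the sum does not describe each of the 4 genes.

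Of 4 tested enzymes of cholesterol and bile acids 1 was called lower and 1 higher. Cyp8b1, the liver enzyme that commits bile acid synthesis to cholic acid, had 13, 26 and 13 UMIs in Aire+/+ and 1 in each Aire-/- library. The change was -2.99 ± 0.64 on the log2 scale (edgeR adjusted p = 0.00468), and the pooled ratio of 8.56 had a counting interval of 2.77 to 42.8. With any single Aire+/+ library left out Cyp8b1 no longer passed the count filter and carried no test. Cyp27a1, the mitochondrial sterol hydroxylase found in most tissues, rose from 27.9, 27.4 and 30.6 CPM to 51.3, 50.6 and 66.0 CPM, which is 0.97 ± 0.17 on the log2 scale (edgeR adjusted p = 0.00116). The genotypes did not overlap, and the call held with each library left out in turn. Cyp7b1, which hydroxylates oxysterols, was at 4.11 CPM in library 746 and at 25.8 and 23.8 CPM in 748 and 749, around the 13.9 to 18.0 CPM of the Aire+/+ libraries, and was not called (log2 change 0.29 ± 0.38). Cyp39a1, another oxysterol hydroxylase, had 19, 8 and 15 UMIs against 0, 11 and 1 and was not called (log2 change -0.81 ± 0.69). Without library 748 it was called lower (-3.43, adjusted p = 0.038). Cyp46a1, the cholesterol hydroxylase of neurons, had 5, 11 and 6 UMIs against 0, at least 3.62-fold lower.

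The Cyp26 enzymes, which break down retinoic acid, split. Cyp26a1 was at 103, 107 and 109 CPM in Aire+/+ and at 162, 195 and 149 CPM in Aire-/-, so every Aire-/- library lay above every Aire+/+ library. The change was 0.67 ± 0.14 on the log2 scale (edgeR adjusted p = 0.00391), and the call held with each library left out in turn. Cyp26b1, its partner in developing skin, limb and germ cells, had 31, 19 and 26 UMIs against 3, 4 and 6, or 8.39 ± 1.97 and 2.97 ± 0.76 CPM (log2 change -1.51 ± 0.41, edgeR adjusted p = 0.0192). Its libraries did not overlap, but the call was lost without 745 (adjusted p = 0.0837), 748 (adjusted p = 0.103) or 753 (adjusted p = 0.0627). The difference between the Cyp26 fold changes was not tested. Cyp24a1, which inactivates vitamin D, had 7, 5 and 5 UMIs against 0 (at least 2.80-fold lower), and Cyp27b1, which activates it, had 3, 8 and 8 against 2, 1 and 0 (ratio 3.13, interval 0.92 to 16.5). Cyp20a1, an enzyme of unknown substrate, had 27, 24 and 26 UMIs against 12, 18 and 15, or 8.50 ± 0.50 and 10.4 ± 1.69 CPM. Its Aire-/- libraries lay above the others without a call (log2 change 0.26 ± 0.29).

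The 26 genes below the count filter had 8 to 46 UMIs over the Aire+/+ group and 0 to 11 over the Aire-/- group. In 14 of them every Aire-/- library was at 0, beside 18.3% of all genes below the filter and 5.48% of all genes. At 0 throughout Aire+/+ were 0 P450 genes and 2 of all 15643 genes, so that absence is shared by nearly the whole table. The Aire+/+ group holds 8463741 UMIs in all and the Aire-/- group 4799615, so a gene is missed more easily in Aire-/-, and the bounds that follow allow for this. Cyp2d26 (11, 21 and 14 UMIs against 0) was at least 7.57-fold lower. Cyp2b10, a liver target of the nuclear receptor CAR (22, 14 and 8 against 0), was at least 7.24-fold lower. Cyp4b1, a lung enzyme (12, 5 and 11 against 0), was at least 4.61-fold lower, and Cyp2w1, an enzyme of fetal gut (5, 11 and 10 against 0), at least 4.28-fold lower. These 4 genes and Cyp2d10 (7, 5 and 8 against 0, at least 3.29-fold lower) were also called lower under the looser filter.

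The other genes with 0 UMIs throughout Aire-/- were Cyp3a11, Cyp3a44, Cyp4a12a, Cyp4a12b, Cyp4a14 and Cyp4x1, with bounds of 1.32-fold for Cyp4a14 to 3.13-fold for Cyp3a44 and Cyp4a12a. Such bounds leave out the counting error of the Aire+/+ counts. For Cyp4a14 and Cyp4x1, with 8 and 9 UMIs in Aire+/+, a decrease is therefore not established. Cyp3a11 is the main drug-metabolising P450 of mouse liver and had 7, 5 and 2 UMIs. Most UMIs came from 1 library for Cyp3a44 (4, 1 and 14 UMIs), Cyp4a12b (13, 5 and 0 UMIs), Cyp4a14 (1, 6 and 1 UMIs) and Cyp4x1 (1, 6 and 2 UMIs). The remaining genes kept a few UMIs in Aire-/-. Cyp4f40 had 7, 8 and 8 UMIs against 0, 1 and 2, without overlap. Scaled for depth, the levels of the genotypes overlapped for Cyp2j13 (18, 15 and 12 UMIs against 4, 0 and 5), Cyp2j9 (13, 5 and 17 against 2, 2 and 3), Cyp2d12 (3, 11 and 8 against 1, 0 and 2) and Cyp3a25 (13, 3 and 9 against 1, 4 and 6). They also overlapped for Cyp2a4 (8, 2 and 6 against 0, 2 and 2), Cyp2d34 (7, 6 and 6 against 0, 1 and 6), Cyp2d22 (3, 3 and 7 against 6, 0 and 1) and Cyp2c23. Cyp2d22, with 13 UMIs against 7, did not have a lower pooled level in Aire-/- (ratio 0.92, interval 0.34 to 2.71). The 3' ends of the Cyp2d genes match each other or Cyp2d genes not analysed here at up to 98.0% identity, those of Cyp4a12a and Cyp4a12b match at 98.6%, and those of the Cyp3a genes match further Cyp3a copies at 90.7% to 97.5%, so single members of these families are uncertain.

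**Figure D4:**
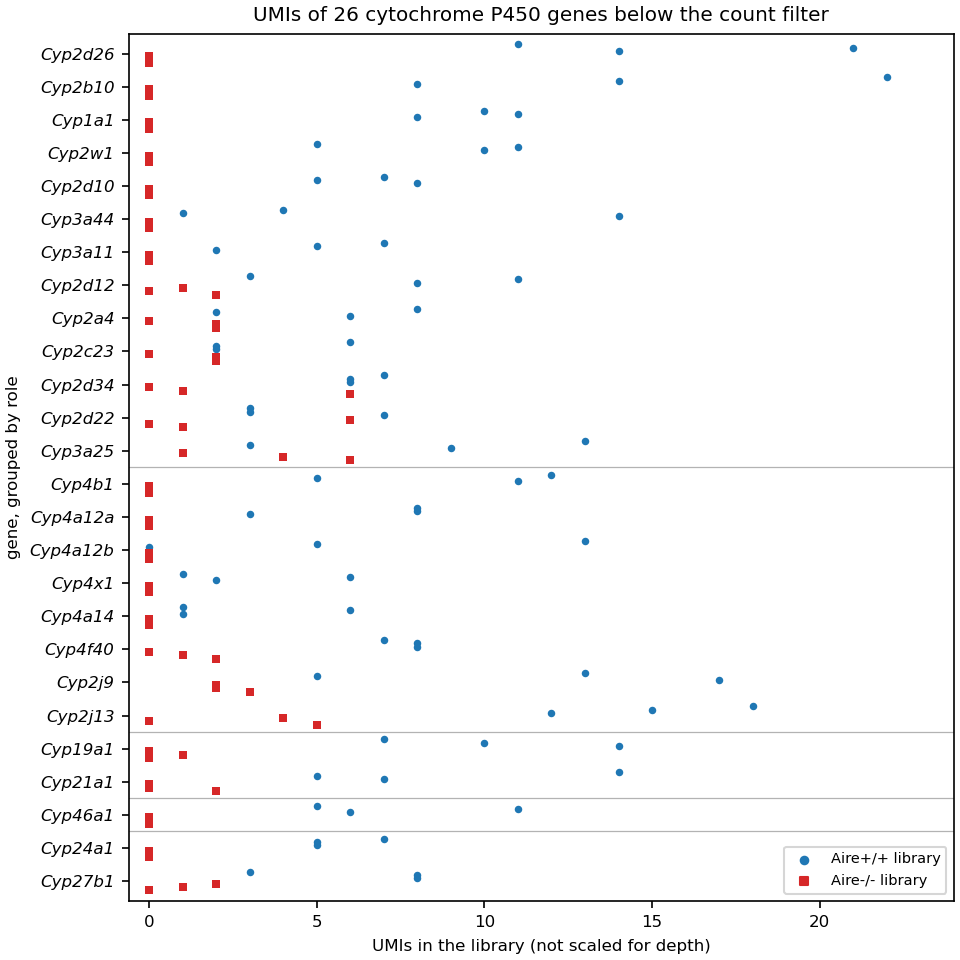
UMIs per library of the 26 P450 genes below the count filter, not scaled for depth, grouped by role (foreign compounds at the top, then fatty acids, steroid hormones, cholesterol, vitamin D). Blue circles are Aire+/+ libraries and red squares Aire-/- libraries, offset so that equal values can be seen. In 14 genes all 3 red squares lie at 0.

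Several members lie side by side in gene clusters. The Cyp2 cluster on chromosome 7 spans 1331 kb (mm10, chr7:25802475-27133660) and had 7 genes in the table. In chromosomal order its tested genes Cyp2s1, Cyp2b19, Cyp2g1, Cyp2a5 and Cyp2f2 had log2 fold changes of -1.43, -1.77, 1.41, 0.58 and -2.95. Cyp2b19, called lower (chr7:26757142-26772630), and Cyp2g1, called higher (chr7:26808892-26821205), are direct neighbours there among the genes of the table. The Cyp4f cluster on chromosome 17 spans 495 kb (chr17:32452723-32947402), and Cyp4f14 (chr17:32905070-32917342) was the one of its 6 tested genes to be called. Its neighbour Cyp4f13 (chr17:32924688-32947402) had a log2 fold change of -0.10 beside -3.96 for Cyp4f14. The last 300 bases of Cyp4f13 match Cyp4f15, Cyp4f16, Cyp4f17 and Cyp4f40 at 90.7% to 92.6%, whereas Cyp4f14 had no match to another gene at 90% identity over 80 bases or more. On chromosome 9 the genes Cyp1a2 (chr9:57676937-57683703), Cyp1a1 (chr9:57687928-57703824) and Cyp11a1 (chr9:58006411-58027023) lie within 350 kb, and both tested genes were lower. The annotation used (GENCODE M21) holds 99 protein-coding genes named in this way, and the 49 others were not analysed here. They include 14 of the 15 Cyp2c genes and 6 of the 9 Cyp3a genes.

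**Figure D5:**
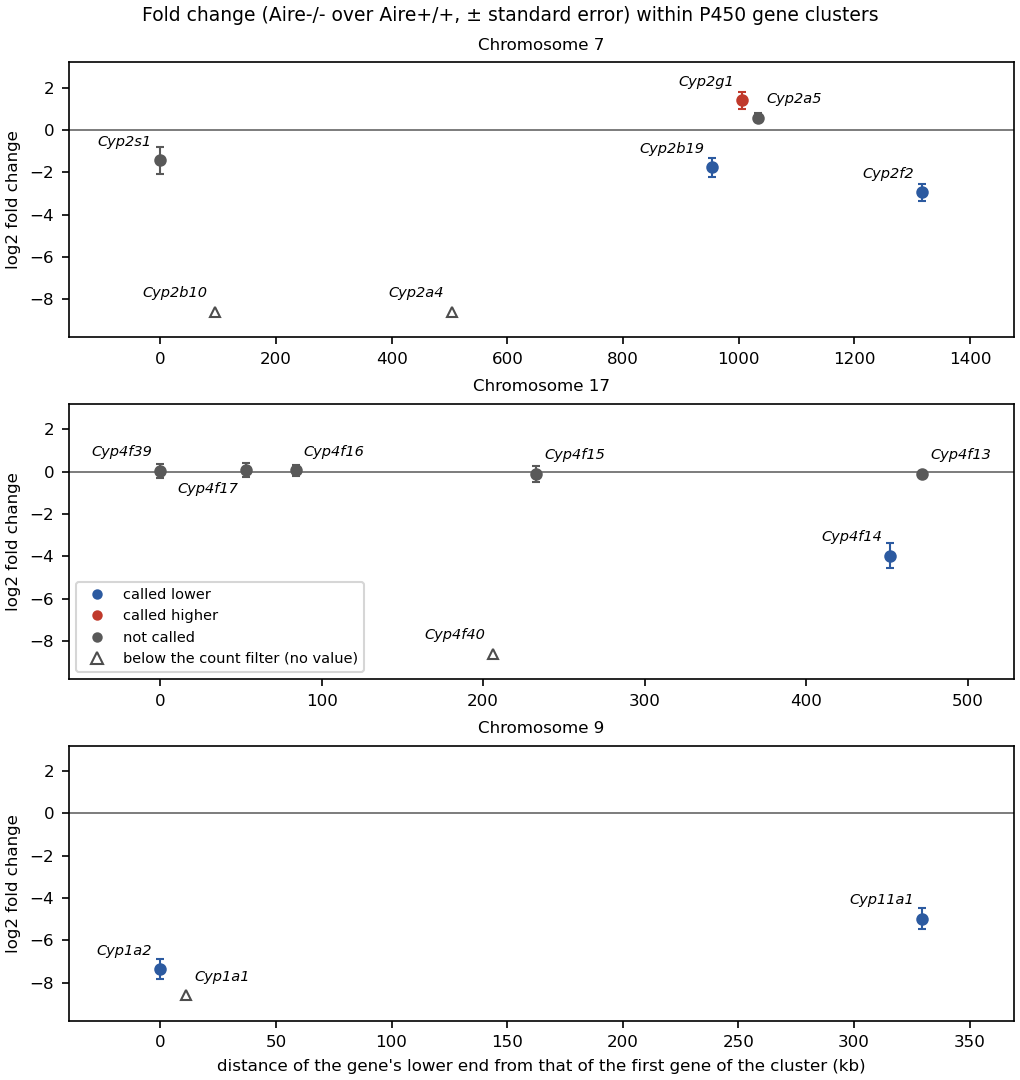
Log2 fold change (Aire-/- over Aire+/+, bars are standard errors) of P450 genes against their distance in kb from the first gene of the cluster on chromosomes 7, 17 and 9. Triangles at the bottom mark genes below the count filter, which have no value. Cyp2b19 and Cyp2g1 lie side by side with fold changes of -1.77 and 1.41, and Cyp4f14 stands apart from the Cyp4f genes around it.

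Heme synthesis and electron transfer serve all P450 enzymes. Of 26 electron donors and heme enzymes 23 were in the table, 22 were tested, 1 was called higher and 0 lower (background 8.59% and 12.1%), with a median log2 fold change of 0.18. The call was Alas1, the first enzyme of heme synthesis, which went from 803, 812 and 855 UMIs to 591, 1157 and 917, or from 273 ± 12.5 to 597 ± 32.1 CPM (log2 change 1.13 ± 0.12, edgeR adjusted p = 3.07e-05). Por, the reductase that feeds electrons to microsomal P450s, was at 56.7 ± 4.46 and 69.6 ± 9.85 CPM (log2 change 0.28 ± 0.16), and Fdx1 and Fdxr, the mitochondrial chain, had log2 fold changes of 0.27 and 0.39 with standard errors of 0.16 and 0.24. Cyb5a, which aids some P450s, had a log2 change of 0.00 ± 0.15. Alas2, the form of erythroid cells, had 44, 76 and 59 UMIs against 27, 43 and 55 and was not called (0.50). Fech, which completes heme, and Cyb5b, at -0.54 and -0.41, were called lower only when scaled by library totals alone (-0.74 and -0.61).

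Of 39 nuclear receptors and other regulators of P450 genes 34 were in the table, 21 were tested, 4 were called higher and 0 lower (background 8.59% and 12.1%), with a median of 0.17. Dbp and Tef, clock-driven factors of liver P450 genes, had log2 fold changes of 1.02 (edgeR adjusted p = 0.00176) and 0.69 (adjusted p = 0.0146), Cebpb 0.80 (adjusted p = 0.0149) and the glucocorticoid receptor Nr3c1 0.65 (adjusted p = 0.0349). With 753 and 746 left out 2 genes of the list were called (1829 of 12168 tested genes, or 15%, called either way). Under the looser filter all 34 were tested, with 7 lower and 4 higher (background 14.2% and 7.47%). Those 7 genes had 0 to 4 UMIs over the Aire-/- group, so they too entered that test through Aire+/+. Of the 4 higher calls only that of Dbp held in every alternative run, and that of Nr3c1 was lost with each single library left out. The liver receptor Hnf4a had 14, 16 and 6 UMIs against 0 (at least 5.92-fold lower), the corepressor Nr0b2 24, 9 and 28 against 0 (at least 10.04-fold lower), and the steroidogenic factor Nr5a1 10, 12 and 4 against 0 (at least 4.28-fold lower). The bile acid receptor Nr1h4 had 13, 11 and 9 against 1, 0 and 0. Of the drug sensors Nr1i3 had 9, 4 and 5 against 0 and Nr1i2 had 4, 11 and 5 against 10, 6 and 8 UMIs. Ahr, which induces the Cyp1 genes, had no call at 4.20 ± 0.23 and 3.90 ± 2.88 CPM, and the retinoic acid receptors Rara and Rarg, which drive Cyp26a1, had log2 fold changes of 0.37 and 0.02 without a call.

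Among 35 partners in steroid hormone synthesis 26 were in the table and 19 were tested, with 5 lower and 2 higher (background 12.1% and 8.59%, 20.7% either way) and a median of -0.42. Hsd17b3, which makes testosterone, had 47, 35 and 66 UMIs against 0 (lower by at least 24.3-fold, edgeR adjusted p = 0.000111), and Akr1c18, which inactivates progesterone, had 75, 34 and 74 against 0 (at least 30.1-fold lower, edgeR adjusted p = 0.000137). Hsd17b13, a lipid droplet enzyme, had 12, 29 and 43 against 0, 2 and 4 (log2 fold change -2.75, edgeR adjusted p = 0.0125). Without library 748 it was not called (adjusted p = 0.0588), without 749 it was -3.63, and with 753 and 746 left out -1.94 (adjusted p = 0.0923). Without 750 alone or 753 alone Hsd17b13 did not pass the count filter and carried no test. Hsd3b7, an enzyme of bile acid rather than hormone synthesis, rose from 47.8 ± 1.71 to 81.5 ± 18.3 CPM (log2 change 0.75 ± 0.17, edgeR adjusted p = 0.00771). With 753 and 746 left out the estimate was 0.60 and the call was lost (adjusted p = 0.0676). Calls on this list numbered 4 without library 745 (14.9% of all tested genes called either way), 3 without 753 (14.5%) and 2 with 753 and 746 left out (15%). Star, which brings cholesterol to Cyp11a1, had 11, 12 and 28 UMIs against 4, 0 and 0. Scaled for depth its genotypes overlapped (4.11 CPM in 746 beside 3.61 CPM in 745). It was not called under the looser filter either (edgeR adjusted p = 0.0566). Hsd3b1, which acts after Cyp11a1, had 22, 10 and 21 UMIs against 0. Both genes were below the main filter. The fold of Hsd3b1 was at least 8.72.

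Markers of liver and gut epithelium moved in the direction of the lower P450 genes. Of 10 such markers 9 were tested, 4 were called lower (Alb, Apoa4, Apob and Fabp2) and 0 higher, and Alb, Apob and Hnf4a had 0 UMIs throughout Aire-/-. Their summed level was 752 to 797 CPM of the library total in Aire+/+ and 534 to 614 CPM in Aire-/-. Of 6 tested markers of microfold-like and other mimetic epithelium Gp2 and Foxj1 were called lower (summed level of the list 475 to 550 CPM against 374 to 388 CPM). The part of such cells in the P450 differences was not tested.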

How the data were processed

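The 6 libraries are MARS-seq libraries of sorted mTEChi. Raw UMI counts per gene symbol were deposited by the authors in 1 table, per the file headers. The normalized counts and the mean count, a signal made by the authors by dividing counts by a size factor per library, and the regularized log2 values were not used. The log2 fold changes, p-values and adjusted p-values of the authors' own comparison stand in the same deposited table, and only its selection of genes is quoted. Listed in the submitters' processing notes are the genome build mm10 and the tools STAR 2.4.2a, HTSeq, bcl2fastq, cutadapt and DESeq2, without roles. For the annotation, the strand setting and multi-mapping reads the entry is not given in the sources used here.

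The quasi-likelihood test of edgeR 4.0.16 in R 4.3.3 compared the genotypes after TMM scaling, with no covariate. A filter (filterByExpr, min.count 10) left 11956 genes, over which p-values were adjusted by Benjamini-Hochberg with a threshold of 0.05. The looser filter used min.count 3. All adjusted p-values are edgeR's unless DESeq2 1.42.0 is named. A count of 0 allows up to 3 UMIs, and bounds built on this take the Aire+/+ count as exact. They leave out its counting error. Intervals are exact Clopper-Pearson intervals at 95% confidence and cover counting error only. Neither bounds nor intervals cover the spread among libraries, and both use library sizes scaled by TMM. Numbers of detected genes at equal depth are hypergeometric expectations. No label says whether libraries came from separate animals, and p-values therefore cover the spread among these libraries, which may be technical. Replicates differed by more than sampling noise (chi-square per degree of freedom 3.02 to 6.83). Library numbers differ between genotypes and pair none. Steps were tested on simulated data. Positions are from GENCODE M21 and promoters from RefSeq (GRCm38.p6). The last 300 bases of transcripts were searched with blastn 2.17.0, keeping matches of at least 80 bases and 90% identity.

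Per-library values are given for tested P450 genes and for untested ones with 20 or more UMIs in all. Of each other list, up to 4 tested genes with the smallest p are named. Others were named after their values were seen. The members and lists were chosen with earlier results of these data known. Alternatives were other scalings and filters, DESeq2, and each library left out. Leaving out 753 and 746 together was added after the data were seen.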

Additional observations from a re-analysis of the deposited data

How the results depend on the processing

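The limits are 3 libraries per genotype, shallower Aire-/- libraries and UMI sums under 50 in Aire+/+ for the 26 untested P450 genes. No paired analysis was possible because library numbers differ between genotypes. Lower P450 calls (7) numbered 16 with min.count 3 and 17 without a filter, since more genes were tested. The genes gained with min.count 3 passed it through Aire+/+ alone. With 1 library left out lower P450 calls numbered 4 to 12. Higher P450 calls (3) stayed within 2 to 4. Over all genes, higher calls (1027) fell to 567 by library totals alone, which moved the median log2 fold change of all genes from -0.02 to -0.22, to 652 without 753 and 746, and ranged from 618 to 1156 with 1 library left out. Calls among electron donors and heme enzymes (1) numbered 3 by library totals and 1 to 2 with 1 library left out. Regulators (4) numbered 2 by DESeq2, 11 with min.count 3, 11 without a filter, 2 without 753 and 746, and 2 to 9 with 1 left out. Steroid partners (7) numbered 2 without 753 and 746 and 3 to 9 with 1 left out. DESeq2 gave Cyp26b1 an adjusted p of 0.0693 and kept the other 9 P450 calls. Fold changes changed sign for P450 genes that were not called: by library totals Cyp4f16 (-0.12), Cyp4f17 (-0.13) and Cyp4f39 (-0.15), without 753 and 746 the same genes (-0.10, -0.36 and -0.067), and with 1 library left out Cyp4f15 (-0.39 to 0.18), Cyp4f16 (-0.20 to 0.28), Cyp4f17 (-0.23 to 0.35), Cyp4f39 (-0.18 to 0.28) and Cyp7b1 (-0.024 to 0.65). The summed P450 level moved from 824 to 771 CPM in Aire+/+ and from 692 to 742 CPM in Aire-/- on TMM-scaled sizes. Detected genes averaged 46.8 in Aire+/+ and 27.8 in Aire-/- at equal depth, 49.7 and 30.3 in the counts as deposited, and 36.2 and 19.3 with at least 3 UMIs. Where no construction shows it, the cause was not tested.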
